A study of Mus musculus with 8 samples.

Results

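The genes described here encode the platelet-derived growth factors (PDGFs) and their receptors. They are the 4 ligand genes Pdgfa, Pdgfb, Pdgfc and Pdgfd, the receptor genes Pdgfra and Pdgfrb, and the receptor-like gene Pdgfrl. The members were chosen by gene symbol from published family membership, with earlier results of these data known. All 7 stood among the 16796 genes that the files list. PDGFs are secreted as dimers that draw receptor chains together, after which the receptor kinases phosphorylate each other and recruit signalling proteins. PDGF-A and PDGF-B are cut to their active form inside the cell, whereas PDGF-C and PDGF-D are released in a latent form that proteases outside the cell must open. In injured liver PDGF is known as a strong mitogen and chemoattractant for hepatic stellate cells, the pericytes that become collagen-producing myofibroblasts.

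Whole-liver RNA was sequenced from 8 mice, 4 of them wild type (WT, mice 164, 165, 166 and 167) and 4 carrying a liver-specific knockout of E4bp4 (E4bp4-LKO, mice 143, 144, 145 and 179). E4bp4 is the older name of Nfil3, a transcriptional repressor tied to the circadian clock. Mice of both groups were put on a diet that induces non-alcoholic steatohepatitis (NASH) at 2 months of age and kept on it for 20 weeks, so every comparison here is within diseased liver. The sources used here do not give the driver of the deletion, the strain, the sex or the litters, so background and genotype cannot be told apart. Libraries held 23805540 to 32290265 estimated counts, and a member had between 13 and 1685 counts in a library. Hepatocyte markers dominated each library, with 8 genes summing to 37561 to 45036 FPKM in WT and 43077 to 51815 FPKM in E4bp4-LKO livers. FPKM is fragments per kilobase of transcript, scaled to the size of the library. Nfil3 was lower in each E4bp4-LKO liver (3.33 to 6.22 CPM, the count scaled to library size) than in any WT liver (8.79 to 16.5 CPM), with a log2 fold change of -1.35 (SE 0.26, adjusted p = 0.0121; exact two-sided permutation p = 0.0286, the smallest that 70 arrangements allow). CPM values are scaled by the trimmed mean of M values (TMM), and adjusted p values come from edgeR's quasi-likelihood test over 13244 genes, with a threshold of 0.05. The labels give 1 mouse number for each library, and the p values measure the spread between these 8 livers.

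Among the 7 members, Pdgfra fell in E4bp4-LKO livers, 0 rose, and the other 6 did not pass the test. Over all genes tested, 10.8% were called, 6.48% as lower and 4.36% as higher. All 7 estimates were below 0, where 48.3% of all genes tested had an estimate below 0. The members' median log2 fold change was -0.59, beside 0.01 over all genes tested. The 7 genes were measured in the same livers, so they are not independent of each other. The count of 1 lower member became 0 without WT 165, when an E4bp4-LKO mouse was omitted (each of the 4), and without WT 164 and 165 together.

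Pdgfra (Entrez Gene 18595) encodes the alpha receptor, a tyrosine kinase that binds PDGF-A, PDGF-B and PDGF-C. It measured 19.9, 12.1, 9.12 and 11.3 CPM in WT mice 164, 165, 166 and 167, and 7.37, 5.99, 8.49 and 7.72 CPM in E4bp4-LKO mice 143, 144, 145 and 179. The highest E4bp4-LKO liver (145) lay below the lowest WT liver (166), so the groups did not overlap. Group means were 13.1 ± 4.72 CPM in WT and 7.39 ± 1.04 CPM in E4bp4-LKO (SD, n = 4), a 1.78-fold lower level with a log2 fold change of -0.83 (SE 0.22, 95% interval -1.32 to -0.34, adjusted p = 0.0413). Its p ranked 1196 among the genes tested, close to the limit of the calls. Leaving out WT 164 gave a log2 fold change of -0.55 (adjusted p = 0.0419). Leaving out WT 165 or any single E4bp4-LKO mouse gave log2 fold changes of -0.90 to -0.74, which did not pass (adjusted p up to 0.118). Without WT 164 and 165 together the log2 fold change was -0.46 (adjusted p = 0.149).

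RefSeq promoter windows (build GRCm38.p6) were matched by symbol for 4 of the 7 members, Pdgfa, Pdgfc, Pdgfd and Pdgfra, in 5 windows. Those of Pdgfra and Pdgfc are printed because these were the members whose livers did not overlap between the groups, and because E4BP4 binds a known element, the D-box. Each sequence holds the 250 bases before the annotated start, on the plus strand, at chr5:75152001-75152250 for Pdgfra and chr3:81036166-81036415 for Pdgfc. Capitals mark the 8 bases nearest to TTACGTAA or TTATGTAA on either strand.
Pdgfra: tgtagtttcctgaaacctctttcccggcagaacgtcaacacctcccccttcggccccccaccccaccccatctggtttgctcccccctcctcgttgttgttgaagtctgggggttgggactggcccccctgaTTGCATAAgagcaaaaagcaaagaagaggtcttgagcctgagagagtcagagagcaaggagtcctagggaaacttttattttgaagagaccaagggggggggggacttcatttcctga
Pdgfc: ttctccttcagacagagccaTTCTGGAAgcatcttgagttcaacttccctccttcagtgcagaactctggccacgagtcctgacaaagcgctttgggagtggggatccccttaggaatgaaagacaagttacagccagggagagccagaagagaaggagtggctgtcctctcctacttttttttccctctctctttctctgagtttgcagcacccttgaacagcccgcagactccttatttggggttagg
The nearest match was TTGCATAA in Pdgfra, with 1 mismatch to a D-box, and TTCTGGAA in Pdgfc, with 2 mismatches. Of all 32851 windows, 15.7% held a match with at most 1 mismatch in the same 250 bases, and 71.5% with at most 2. An exact TTACGTAA stood in 0.119% of all 300-base windows and TTATGTAA in 0.938%, and neither stood in the 5 windows of the members. The GC box GGGCGG (either strand) stood in 35.7% of all windows, at 3 places in the 2 windows of Pdgfa and in 0 places in those of Pdgfc, Pdgfd and Pdgfra. These matches are descriptions of letters and show no binding.

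Pdgfrb (Entrez Gene 18596) encodes the beta receptor, which binds PDGF-B and PDGF-D and is a marker of stellate cells and other pericytes. WT livers measured 48.7, 29.8, 24.0 and 27.7 CPM in mice 164 to 167, and E4bp4-LKO livers 20.2, 19.4, 25.8 and 19.1 CPM in mice 143, 144, 145 and 179. The groups overlapped through a single pair, since E4bp4-LKO 145 lay above WT 166. Means were 32.6 ± 11.03 CPM and 21.1 ± 3.14 CPM (SD, n = 4), and the difference did not pass (log2 fold change -0.62, 95% interval -1.10 to -0.15, adjusted p = 0.0883). In DESeq2, which called 8.89% of its tested genes lower, Pdgfrb passed (adjusted p = 0.0218), as did Pdgfra (adjusted p = 0.00427) and Pdgfc (adjusted p = 0.0332).

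Pdgfrl (Entrez Gene 68797) encodes a secreted protein that resembles the receptors' outer part and has no kinase domain. It was the scarcest member, with 22 to 56 counts in WT and 13 to 23 counts in E4bp4-LKO libraries. WT livers measured 1.62, 0.915, 0.912 and 0.769 CPM, and E4bp4-LKO livers 0.703, 0.593, 0.845 and 0.580 CPM, in the same mouse order. E4bp4-LKO 145 again lay within the WT range, above WT 167. The log2 fold change of -0.63 did not pass (95% interval -1.29 to 0.02, adjusted p = 0.189). At these counts the interval reaches from a fall larger than that of Pdgfra to a value just above 0.

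None of the 4 ligand genes passed. Pdgfc (Entrez Gene 54635) encodes the latent ligand PDGF-C, which acts through the alpha receptor. It measured 8.99, 6.50, 5.65 and 5.53 CPM in WT mice 164 to 167 and 4.55, 3.29, 4.93 and 5.00 CPM in the E4bp4-LKO mice. Each E4bp4-LKO liver lay below each WT liver, a pattern that 9.68% of all genes tested showed in this direction, and that Pdgfra shared among the members. Means were 6.67 ± 1.61 and 4.44 ± 0.791 CPM (SD, n = 4), with a log2 fold change of -0.59 (SE 0.19, 95% interval -1.01 to -0.17, adjusted p = 0.0696). The closest livers, WT 167 and E4bp4-LKO 179, differed by less than the spread within either group.

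Pdgfb (Entrez Gene 18591) encodes PDGF-B, which binds both receptors and is made by platelets, endothelial cells and macrophages. It measured 8.79, 4.49, 4.35 and 4.58 CPM in WT mice 164 to 167 and 5.14, 3.75, 3.86 and 3.48 CPM in the E4bp4-LKO mice. WT 164 stood at nearly double the level of the other WT livers, which lay close together, and E4bp4-LKO 143 lay above those 3. The log2 fold change was -0.45 (95% interval -0.99 to 0.08, adjusted p = 0.249) with all livers and -0.14 (adjusted p = 0.680) without WT 164.

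Pdgfd (Entrez Gene 71785) encodes PDGF-D, the latent ligand of the beta receptor. It measured 3.09, 1.56, 0.877 and 1.08 CPM in WT and 1.37, 1.48, 1.10 and 0.937 CPM in E4bp4-LKO livers, so that WT 166 had the lowest value of all 8 and WT 164 the highest. The log2 fold change of -0.44 (95% interval -1.26 to 0.38, adjusted p = 0.487) turned to 0.06 without WT 164 (adjusted p = 0.921) and to 0.33 without WT 164 and 165 (adjusted p = 0.600). No direction can be given for this ligand.

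Pdgfa (Entrez Gene 18590) encodes PDGF-A, a ligand of the alpha receptor that is cut before secretion. It measured 10.6, 8.54, 8.63 and 7.06 CPM in WT and 6.59, 9.49, 8.09 and 6.65 CPM in E4bp4-LKO livers, with values of the groups interleaved. The log2 fold change was -0.18 (95% interval -0.52 to 0.16, adjusted p = 0.501). Its interval excludes a fall as large as the estimates for Pdgfra, Pdgfc, Pdgfrb and Pdgfrl, but the differences between members were not tested.

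**Figure D1:**
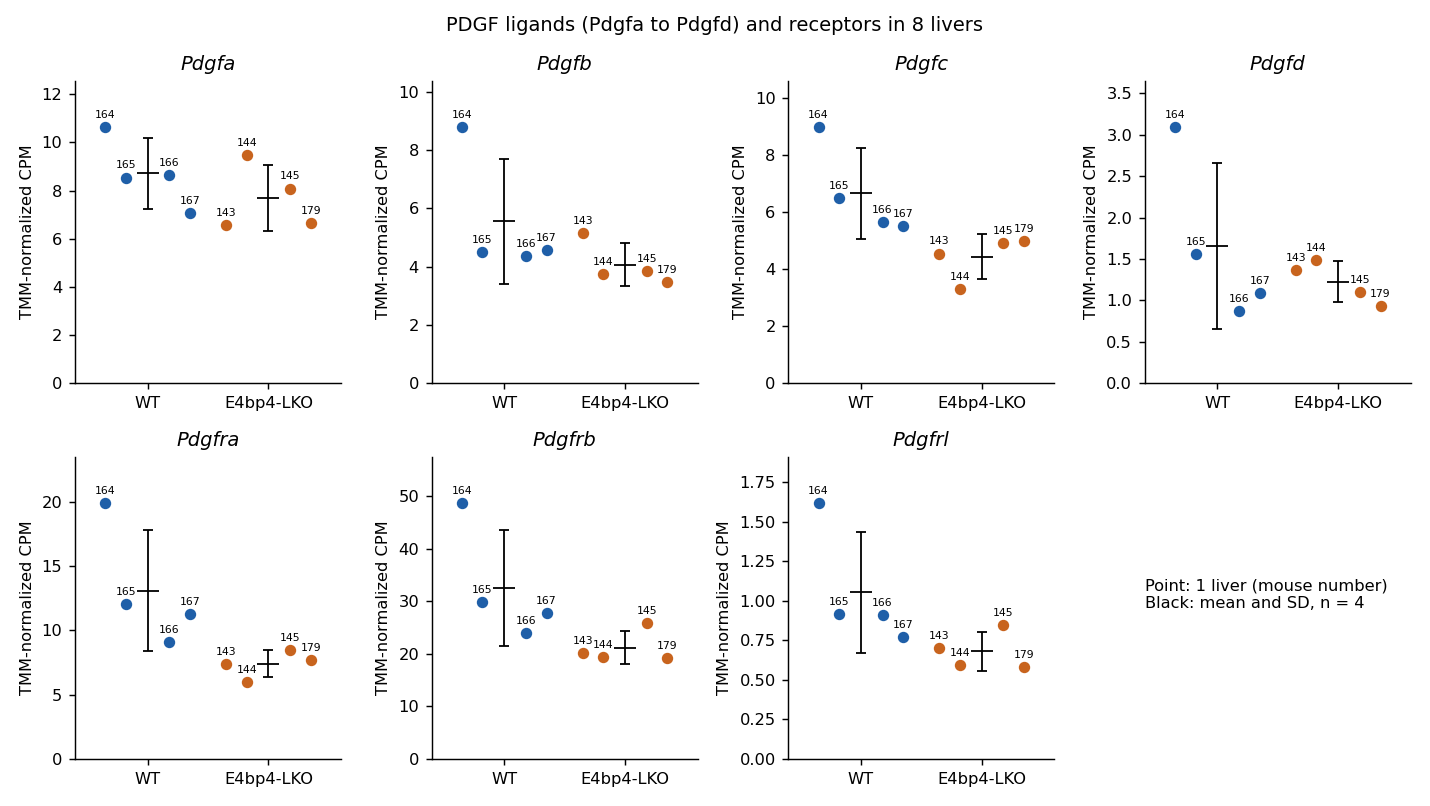
TMM-normalized CPM of each member in each liver (points with mouse numbers; black, mean and SD, n = 4; each panel has its own axis from 0). WT 164 is the highest liver in all 7 panels, and the groups do not overlap for Pdgfra and Pdgfc.

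WT 164 had the highest level of all 7 members among the 8 livers. Over all genes tested, this liver was the highest for 23.1%. Its level was 1.32 times the mean of the other WT livers for Pdgfa, 1.53 times for Pdgfc, 1.79 times for Pdgfrb, 1.84 times for Pdgfra, 1.87 times for Pdgfrl, 1.96 times for Pdgfb and 2.64 times for Pdgfd. WT 164 also had the largest TMM factor, 1.16, followed by WT 165 with 1.09, against 0.94 to 1.00 in the other 6. Without WT 164 the other WT livers measured 9.12 to 12.1 CPM for Pdgfra, above the E4bp4-LKO range of 5.99 to 8.49 CPM, and 5.53 to 6.50 CPM for Pdgfc, above 3.29 to 5.00 CPM. For Pdgfrb they measured 24.0 to 29.8 CPM, overlapping 19.1 to 25.8 CPM. With plain library totals the median of all genes moved to -0.15, calls were 85.1% lower in place of 59.7%, and the estimates relative to that median were -0.86 for Pdgfra, -0.66 for Pdgfrb and -0.62 for Pdgfc.

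**Figure D2:**
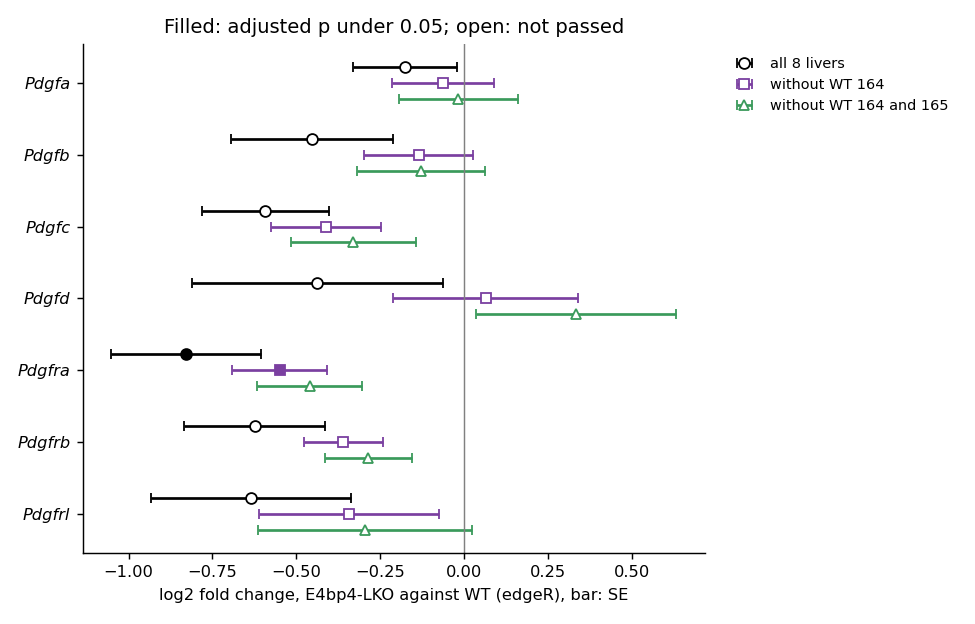
log2 fold change of each member in E4bp4-LKO against WT (edgeR; bars, SE), with all 8 livers, without WT 164, and without WT 164 and 165. Filled symbols passed an adjusted p of 0.05: Pdgfra with all livers (-0.83) and without WT 164 (-0.55), while Pdgfd moves from -0.44 to 0.33.

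Levels of different genes were set side by side per transcript length, in FPKM. By this measure Pdgfa was the highest member in each of the 8 livers and Pdgfrb the next. Their ranges overlapped in WT and not in E4bp4-LKO. The order rests on the scaling for length. In mean counts Pdgfrb lay above Pdgfa, at 1034.5 and 274 in WT and 566.5 and 208.75 in E4bp4-LKO. In WT livers the mean levels were 9.28 ± 2.24 for Pdgfa, 6.39 ± 2.68 for Pdgfrb, 2.12 ± 0.933 for Pdgfra, 2.02 ± 0.649 for Pdgfc, 2.01 ± 0.945 for Pdgfb, 1.01 ± 0.689 for Pdgfd and 0.738 ± 0.328 FPKM for Pdgfrl (SD, n = 4). Pdgfra, Pdgfc and Pdgfb did not differ beyond their spread, nor did Pdgfd and Pdgfrl. In E4bp4-LKO livers the levels were 7.28 ± 1.25 for Pdgfa, 3.66 ± 0.542 for Pdgfrb, 1.30 ± 0.249 for Pdgfb, 1.19 ± 0.215 for Pdgfc, 1.06 ± 0.150 for Pdgfra, 0.648 ± 0.136 for Pdgfd and 0.418 ± 0.0793 FPKM for Pdgfrl. Pdgfra thus stood above Pdgfc and Pdgfb by mean in WT and below both in E4bp4-LKO, and the ranges of these 3 genes overlapped within each group. Within single livers, Pdgfra lay below both in all 4 E4bp4-LKO livers, and above Pdgfc in 2 of 4 WT livers.

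**Figure D3:**
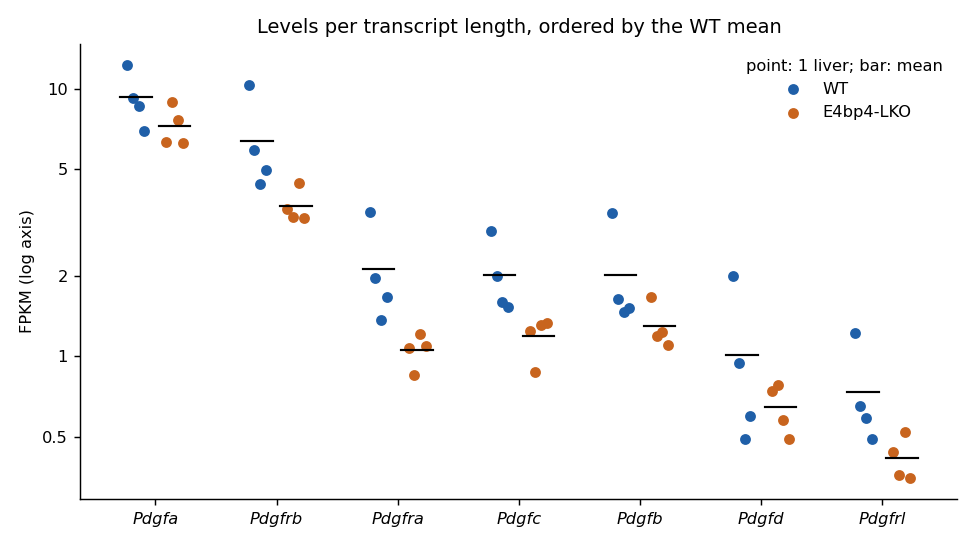
FPKM of each member in each liver on a log axis, WT and E4bp4-LKO side by side (bars, group means), ordered by the WT mean. Pdgfa and Pdgfrb lie above the other 5 members in every liver.

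The beta receptor transcript exceeded the alpha receptor transcript in every liver, by 2.97 to 3.20 times in WT and by 3.02 to 3.92 times in E4bp4-LKO (FPKM ratio). WT 164, the liver with the highest level of both receptors, had the lowest ratio, 2.97, beside 2.98 to 3.20 in the other WT livers. The summed ligand level was 10.6 to 20.7 FPKM in WT and 9.17 to 11.7 FPKM in E4bp4-LKO, and Pdgfa made up 59.6% to 70.8% and 63.5% to 75.8% of it. The summed level of Pdgfra and Pdgfrb was 5.76 to 13.8 FPKM in WT and 4.18 to 5.66 FPKM in E4bp4-LKO. These sums are descriptions and were not tested.

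In whole liver, fewer cells of a type and less RNA per cell cannot be told apart. Markers of cells that carry PDGF receptors were read beside Pdgfra, against a background of 6.48% of all genes called lower. Of 14 markers of quiescent stellate cells, 4 fell (Rgs5, Cygb, Lrat and Colec11), 0 rose and 10 did not pass, and their summed level was 204 to 238 FPKM in WT and 152 to 197 FPKM in E4bp4-LKO. Estimates were below 0 for 11 of the 14, and above 0 for Ecm1 (0.19), Reln (0.07) and Vipr1 (0.23). Among 14 genes that mark activated stellate cells or myofibroblasts, 9 fell, 5 did not pass and 0 rose. The protease inhibitor gene Timp1 and the collagen chaperone gene Serpinh1 were among the 9. Sums of the 14 were 170 to 386 FPKM in WT and 94.6 to 129 FPKM in E4bp4-LKO. Acta2 did not differ (0.004, adjusted p = 0.990), with means of 7.68 CPM in WT and 7.69 CPM in E4bp4-LKO. Tagln (-0.17, adjusted p = 0.186), Col1a1 (-1.458, adjusted p = 0.05975), Col6a3 (-0.9985, adjusted p = 0.111) and Loxl1 (-1.02, adjusted p = 0.103) did not pass either. Of 10 portal fibroblast markers, 8 were tested, 2 fell (Entpd2 and Cd34, the latter also an endothelial gene) and 6 did not pass, with sums of 27.7 to 49.7 FPKM and 19.9 to 28.7 FPKM. Of those 8, 6 estimates were below 0, and Gas1 (0.64, adjusted p = 0.0920) and Thy1 (0.18, adjusted p = 0.676) lay above. None of these markers was at 0 in all libraries. WT 164 had the highest sum of each of these 3 lists. When WT 165 or mouse 144 or 179 of the E4bp4-LKO group was omitted, the quiescent count was 1, the activated count 3 and the portal count 0. Omitting WT 164 gave 2, 8 and 1. The activated count was 5 without mouse 143 and 6 without mouse 145 or WT 167, and the portal count was 1 without mouse 143, mouse 145 or WT 166. As a share of the quiescent stellate sum, Pdgfra made up 0.671% to 1.46% in WT livers, against 0.490% to 0.717% in E4bp4-LKO livers, and Pdgfrb 2.15% to 4.33% and 1.87% to 2.26%, with overlap for both. Without WT 164 the WT shares were 0.671% to 0.915% for Pdgfra and 2.15% to 2.74% for Pdgfrb. The sum weights abundant genes, and Ecm1, which did not fall, had the highest mean CPM of the quiescent list (164.8 in WT, 188.5 in E4bp4-LKO). The part of these cells in the lower Pdgfra level was not tested.

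Platelets, endothelial cells and macrophages, which can make PDGF-B, were read through their own markers. The background was 6.48% of all genes tested called lower and 4.36% called higher. Of 8 platelet and megakaryocyte markers, 3 were tested and 0 passed. Pf4, a platelet chemokine, measured 2.92 CPM in WT 164 and 1.37 to 1.54 CPM in the other WT livers, and 1.03 ± 0.346 CPM in E4bp4-LKO (SD, n = 4; log2 fold change -0.83, adjusted p = 0.118). WT 164 was the highest liver for Pf4, as for Pdgfb and for 23.1% of all genes tested. The other platelet genes tested, Ppbp (0.43, adjusted p = 0.668) and Itga2b (0.13, adjusted p = 0.771), were highest in E4bp4-LKO 143, at 2.85 and 3.85 CPM. That liver was also the highest of the E4bp4-LKO group for Pdgfb, at 5.14 CPM. Of 11 endothelial markers, Vwf rose (log2 fold change 0.32, adjusted p = 0.0415) and 10 did not pass, with sums of 113 to 132 FPKM in WT and 106 to 153 FPKM in E4bp4-LKO. With 1 mouse omitted Vwf passed in 1 of 8 fits, that lacking mouse 179, and it did not pass on library totals. Of 10 macrophage markers, 5 fell, 0 rose and 5 did not pass, with sums of 302 to 499 FPKM and 203 to 290 FPKM. Those that fell were Gpnmb (-1.99), Trem2 (-1.71), Cd63 (-1.69), Cd68 (-0.79) and Cd5l (-0.56). Adgre1 (-0.14), Clec4f (-0.03), Csf1r (-0.24), Vsig4 (-0.24) and Marco (1.755) did not pass (adjusted p 0.173 to 0.950). The macrophage count was 3 when WT 165 or mouse 144 or 145 was omitted. In the other lists, 0 of 5 tested vascular smooth muscle and 0 of 7 T and NK cell markers passed. Of 6 tested cholangiocyte markers 0 passed, with a median of -1.22 and sums of 12.9 to 36.0 FPKM in WT livers against 11.2 to 15.7 FPKM in E4bp4-LKO livers, and 2 were lower without WT 166 or WT 167 and 4 in DESeq2. Of 6 mesothelial markers Krt8 and Gpm6a fell, and all 6 estimates were below 0. Krt8, a keratin that hepatocytes also express, averaged 670 CPM in WT and is no measure of mesothelial cells here, and Gpm6a did not pass in 6 of the 8 fits with 1 mouse omitted. The mesothelial count was 1 without WT 164, 165 or 167 or mouse 143, 144 or 145, and 3 without WT 166 or mouse 179. Of the 8 hepatocyte markers Serpina1c rose and 7 did not pass. The part of these cells in the ligand levels was not tested.

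Of 7 proteases that process PDGF ligands, 2 fell, 0 rose and 5 did not pass, with a median log2 fold change of 0.06. Among all genes tested, 6.48% were called lower. Plat, the tissue plasminogen activator that opens latent PDGF-C, measured 7.34, 4.58, 3.75 and 3.11 CPM in WT mice 164 to 167 and 0.98 to 1.76 CPM in E4bp4-LKO livers. It fell from 4.70 ± 1.86 to 1.27 ± 0.370 CPM (SD, n = 4), a log2 fold change of -1.89 with SE 0.30 (adjusted p = 0.00537), and passed in each of the 8 fits without 1 mouse. St14, the membrane protease matriptase that can cut PDGF-D, fell from 5.80 ± 3.59 to 1.75 ± 0.623 CPM (-1.72, adjusted p = 0.0431) with overlapping groups. It passed without WT 166 or WT 167 but in none of the other 6 such fits. Plau, the urokinase that opens PDGF-D, measured 5.47 ± 1.59 and 3.49 ± 0.766 CPM and did not pass (-0.66, adjusted p = 0.0815). The convertases Furin (0.06), Pcsk5 (0.08), Pcsk6 (0.14) and Pcsk7 (0.12), of the kind that cuts PDGF-A and PDGF-B, did not pass either (adjusted p 0.424 to 0.691).

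Of 13 proteins that bind PDGFs or their receptors, 12 were tested, 3 fell, 1 rose and 8 did not pass, with a median of -0.33. Among all genes tested, 6.48% were called lower and 4.36% higher. Sparc, a matrix protein that binds PDGF-B, fell from a WT mean of 186 ± 45.7 CPM to 105 ± 10.8 CPM (n = 4, SD; -0.83, adjusted p = 0.0105). The small proteoglycan genes Dcn (-0.55, adjusted p = 0.0112) and Bgn (-0.67, adjusted p = 0.0225) fell as well. Nrp1, a co-receptor of vascular and PDGF ligands, rose from 74.3 ± 5.19 to 94.5 ± 7.97 CPM (0.35, adjusted p = 0.0249). Sparc and Dcn passed in all 8 fits without 1 mouse, whereas omitting WT 165 or mouse 144 or 179 ended the call for Bgn (adjusted p up to 0.0731), and omitting WT 165 or mouse 145 or 179 that for Nrp1 (adjusted p up to 0.0749). On library totals Nrp1 did not pass (0.19, adjusted p = 0.211).

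Of 33 adaptors and effectors downstream of the receptors, 3 fell, 2 rose and 28 did not pass, with a median of 0.02. These shares lie near those of all genes tested, 6.48% lower and 4.36% higher. Plcg1, a phospholipase recruited by both receptors, rose from 36.01 ± 2.50 to 54.2 ± 2.65 CPM (n = 4, SD), a log2 fold change of 0.59 with SE 0.07 (adjusted p = 0.00156). The exchange factor Sos1 rose as well (0.33, adjusted p = 0.0269). Mapk3, the kinase ERK1, fell from 76.2 ± 4.31 to 56.6 ± 2.80 CPM (-0.43, adjusted p = 0.00553). The kinase gene Src (-1.03, adjusted p = 0.0242) and the adaptor gene Nck2 (-0.80, adjusted p = 0.0467) fell. Plcg1 and Mapk3 passed in all 8 fits without 1 mouse. On library totals Sos1 did not pass. The call for Src ended when WT 165 or mouse 144 or 179 was omitted, that for Sos1 also when WT 166 or 167 was, and that for Nck2 when any mouse but WT 166 or 167 was (adjusted p up to 0.132).

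Of 18 genes that restrain receptor signalling, Spry1 fell (-0.46, adjusted p = 0.0442), 0 rose and 17 did not pass, with a median of -0.13. The share that fell lies near the 6.48% of all genes tested that were called lower. Spry1, a feedback inhibitor of receptor tyrosine kinases, passed in 1 of the 8 fits without 1 mouse, that without WT 166. The next smallest p values belonged to Spred1 (-0.21), Cblb (-0.28) and Ptpn1 (-0.19), with adjusted p of 0.0939 to 0.125. On library totals 4 genes of this list were lower.

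Of 14 immediate early genes that PDGF is known to induce in cultured cells, 13 were tested, 5 fell, 0 rose and 8 did not pass, with a median of -0.63. Among all genes tested, 6.48% were called lower. Other growth factors and stresses induce the same immediate early genes, so they are no measure of PDGF alone. The transcription factor gene Jun measured 66.8, 57.2, 80.3 and 77.5 CPM in WT mice 164 to 167 and 50.9, 35.9, 40.4 and 40.2 CPM in the E4bp4-LKO mice (log2 fold change -0.75, adjusted p = 0.00741). WT 164 was not the highest liver for Jun. Egr2, another early transcription factor gene, fell from 3.30 ± 0.409 to 1.06 ± 0.469 CPM (SD, n = 4; -1.62, adjusted p = 0.0103). Plaur, which encodes the receptor of urokinase (-1.10, adjusted p = 0.00921), Ccl2, a chemokine for monocytes (-1.25, adjusted p = 0.0111), and Egr1 (-0.72, adjusted p = 0.0396) fell too. Fos measured 4.16 ± 0.723 and 3.11 ± 2.17 CPM and did not pass (-0.41, adjusted p = 0.630). With 1 mouse omitted, Egr1 passed in 1 of 8 fits, that lacking mouse 179 (adjusted p up to 0.0974), and Jun, Egr2, Plaur and Ccl2 passed in all 8. Without WT 164 and 165 together 1 gene of the list passed. Of the 7 relatives of the PDGF receptors and their ligands (Kit, Csf1r, Flt3 and partners), 0 passed, with a median of -0.24. The smallest p in that list were those of the receptor gene Kit (0.43, adjusted p = 0.167) and the ligand gene Csf1 (-0.24, adjusted p = 0.170).

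**Figure D4:**
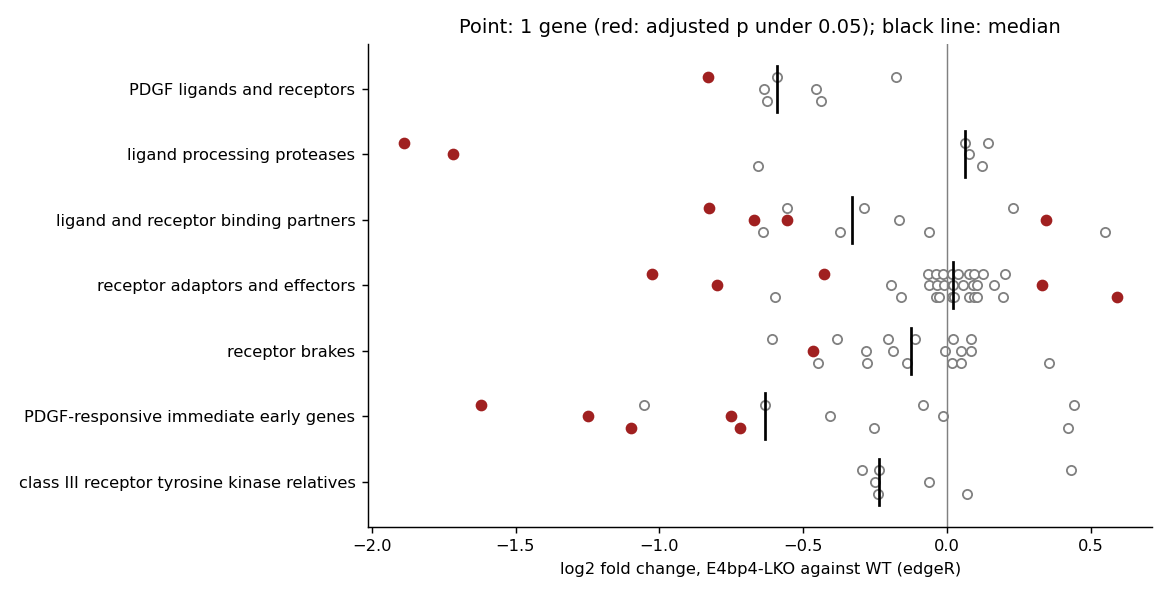
log2 fold change in E4bp4-LKO against WT (edgeR) of each tested gene in the PDGF family and 6 lists around it; red points passed an adjusted p of 0.05 and black lines are list medians. The family's 7 points lie between -0.83 and -0.18, while the 33 adaptors and effectors centre on 0.02.

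The genes whose levels over the 8 livers were most like those of each member were named by Pearson r of log2 CPM, among 10809 other genes with a mean of at least 1 FPKM. Livers share the difference between groups and the standing of WT 164, so high values arise for many genes and r is a description with no test. For Pdgfra they were Trip10 (r = 0.99), Bgn (0.99) and Lhfp (0.99), and without WT 164 these values were 0.97, 0.96 and 0.96. For Pdgfrb they were Camk1 (0.99), Timp2 (0.98) and Art4 (0.98), with 0.97, 0.94 and 0.95 without WT 164. For Pdgfc they were Tbc1d9 (0.99), Prc1 (0.98) and Pvr (0.98). For Pdgfb they were Ttyh3 (0.96, and 0.80 without WT 164), Trim35 (0.96) and Lrfn3 (0.96), and for Pdgfa they were Gpat2 (0.96), Lamb2 (0.95) and Hnrnpul1 (0.94). Among the members themselves, Pdgfra lay nearest to Pdgfrb (0.97) and Pdgfc (0.96), and Pdgfa lay farthest from Pdgfc (0.35) and Pdgfra (0.47).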

How the data were processed

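Whole-liver RNA from 8 mice was compared between groups taken from the labels. The reads were aligned with HISAT2 by the authors, per the submitters' processing notes. The sources used here do not give its version, the quantification program, the build, the annotation or the strand of counting. The deposited expected counts are estimated counts per gene, 25.9% to 27.3% of them fractional. The deposited FPKM values were scaled by the authors for length and library size, per the file headers.

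These counts, rounded to whole numbers, entered edgeR 4.0.16 under R 4.3.3 (filterByExpr with a minimum count of 10 and total of 15, TMM, robust quasi-likelihood, Benjamini-Hochberg over 13244 genes). No libraries were copies (lowest chi-square per degree of freedom 7.24). The SE is the absolute log2 fold change divided by the square root of F. Alternatives used DESeq2 1.42.0, limma 3.58.1 on log2(FPKM + 1), log2(FPKM + 0.1) and log2(TPM + 1) for genes at 1 FPKM in 4 libraries, voom, other filters, and mice left out. Tests were tried on simulated data. At 3 counts, the floor taken, a library resolves 0.0929 to 0.126 CPM, for counting error only.

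Members, lists and alternatives were chosen with earlier results of these data known. Named genes are the members, Nfil3, up to 4 genes of smallest p per list, and 3 genes of highest r per member at 1 FPKM or more. Furin, Pcsk5, Pcsk6, Nck2, Egr1 and Fos were named after their values were seen. So were the markers Acta2, Tagln, Col1a1, Col6a3, Loxl1, Ecm1, Reln, Vipr1, Thy1, Gpnmb, Adgre1, Clec4f, Vsig4 and Marco. GENCODE M21 places antisense genes over Pdgfa, Pdgfb, Pdgfc and Pdgfra, and the protein-coding gene Ddi1 on the opposite strand of Pdgfd. The files do not list these genes, and without strand, reads from where they overlap the members cannot be told apart.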

Additional observations from a re-analysis of the deposited data

Results flagged for a closer look

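In groups of 4 livers, a highest or lowest value was singled out where its gap to the nearest liver exceeded Dixon's 95% critical share of the group's range. This met 14 of 150 groups tested, where chance alone gives about 1 in 20. Among the members, Pdgfb in WT 164 stood at 8.79 CPM against 4.35 to 4.58 CPM in the other WT livers. Pdgfrb in E4bp4-LKO 145 stood at 25.8 CPM against 19.1 to 20.2 CPM in the other E4bp4-LKO livers.

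WT 164 was also the high liver for Cd34 (8.01 CPM, others 3.93 to 4.30), Smtn (18.5, others 13.1 to 13.4), Mylk (101.7, others 94.0 to 94.5) and Pf4 (2.92, others 1.37 to 1.54). WT 165 was high for Flt3l (4.82, others 3.81 to 3.90) and Rgs5 (24.8, others 21.6 to 22.1), and WT 167 was low for Plaur (2.83, others 3.54 to 3.61). Among E4bp4-LKO livers, 143 was high for Kdr (60.0, others 37.7 to 39.6) and low for Plcg1 (50.3, others 55.1 to 55.9). Liver 144 was low for Dcn (190.3, others 229 to 231), and 179 was low for Spred1 (24.7, others 26.7 to 27.2) and Egr2 (0.357, others 1.22 to 1.36). Technical causes of these values were not tested.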

How the results depend on the processing

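The estimates for Pdgfa, Pdgfb, Pdgfc, Pdgfra, Pdgfrb and Pdgfrl stayed below 0 in all alternatives that gave a value, and Nfil3 passed in all 19. Pdgfra (log2 fold change -0.83) passed in 10 of 19. It did not pass with voom sample weights (-0.62), on log2(FPKM + 1) with or without the filter (-0.56 in both) or without WT 164 and 165 (-0.46), and ran from -0.96 to -0.55 without 1 mouse. Pdgfc passed on library totals (-0.77), in DESeq2 (-0.59) and on log2(TPM + 1) (-0.58), and Pdgfrb in DESeq2 (-0.62) and on log2(TPM + 1) (-0.70). Pdgfd turned to 0.052 with voom weights and to 0.33 without WT 164 and 165, and ran from -0.64 to 0.064 without 1 mouse. The count of 1 lower member became 2 on library totals, 3 in DESeq2 and on log2(TPM + 1), and 0 with voom weights, on log2(FPKM + 1) with or without the filter and without WT 164 and 165, and was 0 to 1 without 1 mouse. The 1436 genes called became 2233 in DESeq2, 2214 on log2(TPM + 1), 387 without WT 164 and 165, and 506 to 1539 without 1 mouse. Fits with mice left out also have smaller groups. The cause of these differences was not tested.

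Of the genes of smallest p named from the lists, 4 that did not pass changed sign. Pcsk7 went to -0.031 on library totals, -0.032 on log2(FPKM + 1) with or without the filter, -0.036 on log2(FPKM + 0.1) and -0.073 on log2(TPM + 1). Eng went to -0.033 on library totals, -0.026 on log2(FPKM + 1) with or without the filter, -0.027 on log2(FPKM + 0.1) and -0.069 on log2(TPM + 1). Itga2b went to -0.023 on library totals and -0.022 on unfiltered log2(FPKM + 1), and ran from -0.16 to 0.26 without 1 mouse, and Ppbp from -0.24 to 0.75, in both cases lowest without E4bp4-LKO 143. Pdgfd and Pdgfrl fell below the FPKM and 5 CPM filters, and Pdgfb below the latter, so those fits gave no value for them. Pdgfrl and Pdgfd had 13 to 107 counts per library, the fewest of the members by mean, and Pdgfd also varied most between WT livers (coefficient of variation 60.6%).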
